A study of Mus musculus with 6 samples.

Results

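Nrarp and 7 genes that modulate Notch signalling inside or at the surface of the receiving cell were measured in presomitic mesoderm of wild-type and Nrarp knockout mouse embryos. The 8 genes were chosen by name: Nrarp itself, Rbpj and Maml1 of the Notch transcription complex, the Fringe genes Mfng and Rfng, Psen2 and Adam17 of receptor cleavage, and the Deltex gene Dtx1. They are 8 of 13840 genes with a probe assigned to that gene alone, and each is read by 1 probe, so levels are given for a probe and are not set against those of another gene. Presomitic mesoderm is the unsegmented caudal tissue that gives rise to the somites, the blocks from which vertebrae develop. The embryos were at embryonic day 10.5 and came from crosses of parents that both carried 1 mutant allele. Wild-type embryos were littermates of the mutants, and in the knockout LacZ, a bacterial reporter gene, stands in place of the coding region of Nrarp. For each genotype 12 presomitic mesoderms were collected and 3 one-colour arrays are given, numbered replicates 1 to 3. How these were shared out over the arrays is not said in the labels, and p-values therefore reflect the spread among these arrays alone, part of which may be technical. The tissue is a bulk sample, in which fewer cells of a type and less RNA per cell cannot be told apart.

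Notch is a receptor that is cut after it binds a ligand on a neighbouring cell. ADAM metalloproteases such as ADAM17 can make the outer cut, and gamma-secretase, of which Psen2 encodes a catalytic subunit, makes the cut in the membrane that frees the intracellular domain. That domain enters the nucleus, joins the DNA-binding protein RBPJ and a Mastermind coactivator such as MAML1, and switches on target genes. Fringe enzymes add sugar to Notch and change its response to different ligands, Deltex proteins are ubiquitin ligases that bind the intracellular domain, and NRARP, a small ankyrin-repeat protein induced by Notch, binds the transcription complex and limits it. In presomitic mesoderm this pathway takes part in the segmentation clock, whose period is the subject of the series.

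Windows of 250 bases before the annotated gene start are shown for Nrarp, whose coding region was replaced, and for Rbpj, the DNA-binding component. A window is also shown for Dtx1, the only other of the 8 genes whose genotype groups did not overlap, as for 3.78% of all probes. They are RefSeq sequences of build GRCm38.p6, at chr2:25180508-25180757 (plus strand) for Nrarp, chr5:53590096-53590345 (plus strand) for Rbpj and chr5:120711670-120711919 (minus strand) for Dtx1. Capitals mark TGGGAA, the core of the RBPJ recognition sequence, searched on both strands, where the minus strand reads TTCCCA.
Nrarp: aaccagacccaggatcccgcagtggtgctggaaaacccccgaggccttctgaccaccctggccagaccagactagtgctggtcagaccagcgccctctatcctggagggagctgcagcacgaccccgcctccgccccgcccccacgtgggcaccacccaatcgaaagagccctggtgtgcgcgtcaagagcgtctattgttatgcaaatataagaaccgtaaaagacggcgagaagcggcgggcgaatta
Rbpj: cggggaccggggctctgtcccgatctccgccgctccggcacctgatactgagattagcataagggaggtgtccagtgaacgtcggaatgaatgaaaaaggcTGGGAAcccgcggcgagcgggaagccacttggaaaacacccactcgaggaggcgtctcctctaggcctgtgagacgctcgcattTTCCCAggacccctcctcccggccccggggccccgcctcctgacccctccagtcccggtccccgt
Dtx1: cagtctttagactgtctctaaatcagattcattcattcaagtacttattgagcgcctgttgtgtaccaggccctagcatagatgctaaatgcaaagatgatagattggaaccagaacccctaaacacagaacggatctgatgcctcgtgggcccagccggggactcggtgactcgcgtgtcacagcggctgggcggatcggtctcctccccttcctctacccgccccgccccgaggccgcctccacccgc
In Rbpj the letters begin 149 bases before the start on the plus strand and 65 bases before it on the minus strand. They do not occur in the windows of Nrarp and Dtx1. Of the 8 genes 7 were matched in the promoter table, all but Mfng, with 9 windows in all, and 3 of these windows hold the motif. These are both overlapping windows of Rbpj, which share 1 match, and the second of the windows of Psen2. Among all 32851 windows of this length given for mouse genes, 21.6% hold the motif and 2.77% hold it more than once. A match is a description of letters and not a bound site.

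All 6 arrays had been scaled to medians between 0.981 and 0.993, so an intensity of about 1 is the middle probe of its array. Precision is limited by having only these 6 arrays. The replicate 1 arrays of both genotypes stood apart in range: their 75th percentile was 42.7 and 56.9 times their 10th percentile, against 12.4 to 16.0 times on the other 4. Of 9 measured markers of presomitic mesoderm, 6 lay above the 75th percentile of every array and 0 lay below the median on every array. Their summed intensity was 1431 to 1745 in wild type and 1513 to 1693 in the knockout. Of 6 somite markers 3 lay above the 75th percentile on every array, as did 5 of 6 primitive blood markers, 4 of 6 surface ectoderm, 2 of 6 endothelium, 2 of 6 gut endoderm, 1 of 4 notochord and 1 of 8 neural tube markers. Below the median on every array lay 4 of 8 neural tube, 1 of 6 endothelium and 1 of 6 surface ectoderm markers, and 0 in the remaining lists. Some genes listed for other tissues were thus bright beside those of presomitic mesoderm, and others were not. The summed intensity of each of these lists overlapped between the genotypes.

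All knockout arrays gave a far lower Nrarp signal than all wild-type arrays. The Nrarp probe read 318, 429 and 448 on wild-type replicates 1 to 3 and 14.3, 42.5 and 23.3 on the knockout arrays. The wild-type mean was 398 ± 70.2 and the knockout mean 26.7 ± 14.4 (SD, n = 3 each). The groups did not overlap, and the highest knockout array was far below the lowest wild-type array. Matched by replicate number, the knockout signal was 4.48%, 9.90% and 5.21% of the wild-type signal. The probe ranked at percentiles 98.0 to 98.6 of its array in wild type and still at 78.5, 91.1 and 86.9 in the knockout, so the remaining signal was not at the floor of the array. Knockout values were more scattered than wild-type ones, with a log2 SD of 0.79 against 0.27 (n = 3 each).

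The log2 difference of Nrarp, knockout minus wild type, was -4.03 (SE 0.41 in limma, 95% interval -4.98 to -3.08). Over all 33012 probes the limma adjusted p was 0.428. With a block on the replicate number the SE was 0.20 and the limma adjusted p 0.00042, so that Nrarp fell by this test. It also fell within replicates 2 and 3 alone (-3.80, limma adjusted p = 0.00167). The SE of 0.20 draws on the variance of other probes of like intensity. It is not the spread of Nrarp alone, whose pairs gave -4.48, -3.34 and -4.26. With the block but no intensity trend in the variance model the SE was 0.31, and Nrarp did not pass (limma adjusted p = 0.975, 0 probes called). The exact permutation test gave p = 0.1 (two-sided), the smallest that 3 against 3 arrays allow. Nrarp is the gene that was replaced, and the sources used here do not give whether its probe lies in the replaced part, so it checks the labels only if it does. Of the 8 genes 0 passed without the block, where 0% of all probes passed and 217 had an unadjusted p under 0.05, and 1 passed with it, where 0.00606% of all probes passed.

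**Figure D1:**
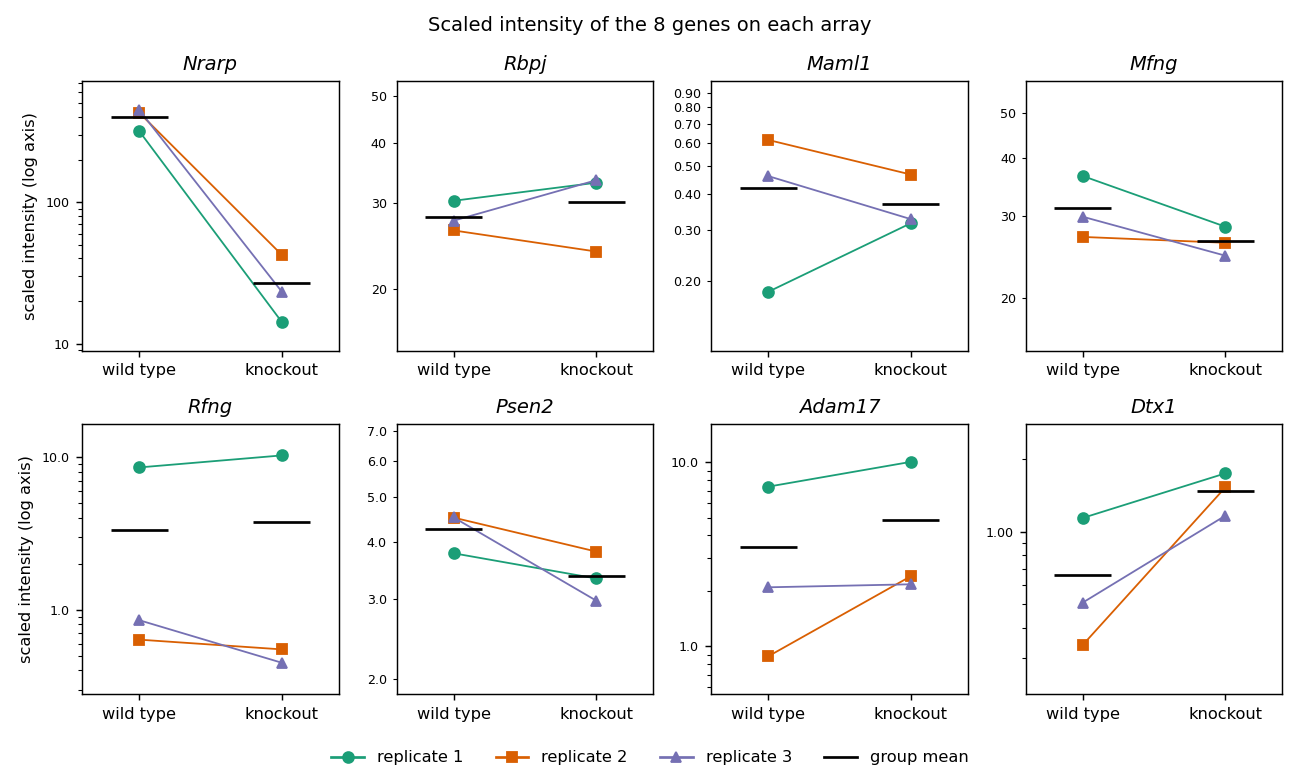
Scaled intensity (log axis, 1 panel per gene with its own range) of the 8 genes on the 3 wild-type and 3 knockout arrays; lines join arrays of the same replicate number and black bars are group means. Nrarp drops on all 3 lines, Dtx1 is higher at the knockout end of all 3, and Rfng and Adam17 separate replicate 1 from the other arrays in both genotypes.

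Rbpj, the DNA-binding subunit on which the complex is built, was bright and close between genotypes. It read 30.4, 26.4 and 27.6 on the wild-type arrays and 33.1, 23.9 and 33.5 on the knockout arrays, with means of 28.1 ± 2.04 and 30.2 ± 5.43 (SD, n = 3 each). The knockout values lie on both sides of the wild-type values, so the groups overlap. The probe ranked between percentiles 86.4 and 89.3 on all 6 arrays. The log2 difference was 0.085 (SE 0.28, 95% interval -0.57 to 0.74, limma adjusted p = 1.00), which leaves room for a knockout level of 0.673 to 1.67 times that of wild type.

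Maml1, the coactivator that completes the complex, was dim. It lay below the array median on 6 of 6 arrays, with readings of 0.184, 0.617 and 0.462 on the wild-type arrays and 0.318, 0.468 and 0.328 on the knockout arrays. The knockout values all fell inside the wild-type range. The log2 difference was -0.035 (SE 0.58, 95% interval -1.39 to 1.32, limma adjusted p = 1.00), and its sign turned with centring on the 75th percentile and when single arrays were left out.

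The other measured genes of the transcription complex and its partners gave no call. Of 23 listed genes 13 have a probe of their own here. Differences were positive in 6 and negative in 7, with a median of -0.032, and 0 passed with or without the block (limma, over all probes; 0 and 0 at an unadjusted p under 0.05). Over all 13840 genes the median was -0.0025 and 49.5% were positive. Apart from Rbpj and Maml1, the smallest blocked p-values belonged to Tle2, a Groucho-family corepressor (log2 difference 0.95, 1.30 on average in wild type and 2.06 in the knockout), and to Hdac2, a histone deacetylase (0.11). Both had a limma adjusted p of 0.999 with the block. The pairs of Tle2 gave 1.92, 0.91 and 0.0051, and its wild-type replicate 1 reading of 0.304 lay below the array median.

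Mfng, the Manic Fringe glycosyltransferase, was slightly lower in the knockout in each same-numbered pair. It read 36.6, 27.1 and 29.9 on the wild-type arrays and 28.5, 26.3 and 24.7 on the knockout arrays. The means were 31.2 ± 4.88 and 26.5 ± 1.91 (SD, n = 3 each), and the groups overlapped because knockout replicate 1 read above wild-type replicate 2. The pairs gave log2 differences of -0.36, -0.042 and -0.28, and the mean was -0.23 (SE 0.27, 95% interval -0.86 to 0.41, limma adjusted p = 1.00). The exact permutation test gave p = 0.2 (two-sided).

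Rfng, the Radical Fringe glycosyltransferase, differed between replicates and not detectably between genotypes. Its probe read 8.53, 0.637 and 0.854 on the wild-type arrays and 10.2, 0.550 and 0.450 on the knockout arrays. The replicate 1 arrays were high in both genotypes and the other 4 arrays lay below the array median. The log2 difference was -0.29 with a wide 95% interval of -3.57 to 2.98 (limma adjusted p = 1.00), which narrowed to -1.18 to 0.59 with the replicate block. The pairs gave 0.26, -0.21 and -0.92, so the sign was not held.

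Among the Notch glycosylation genes, which also add fucose, glucose, xylose or N-acetylglucosamine to the receptor, 6 of 9 listed have a probe of their own here. Differences were positive in 3 and negative in 3, with a median of 0.052, and 0 passed in either limma fit (0 without and 1 with the block at an unadjusted p under 0.05). The smallest blocked p-values outside the Fringe genes were those of Eogt, which adds N-acetylglucosamine (log2 difference 0.37, 27.5 on average in wild type and 36.9 in the knockout, limma adjusted p = 0.999 with the block), and Gxylt2, a xylosyltransferase (0.15). Lfng, the Fringe gene of the segmentation clock, was not analysed here.

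Psen2, a catalytic subunit of gamma-secretase, was lower in the knockout in each same-numbered pair. It read 3.77, 4.52 and 4.52 on the wild-type arrays and 3.32, 3.81 and 2.97 on the knockout arrays, with means of 4.27 ± 0.430 and 3.37 ± 0.419 (SD, n = 3 each). The ranges met at 1 point: knockout replicate 2 read just above wild-type replicate 1. Pair differences were -0.18, -0.25 and -0.60 on the log2 scale, with a mean of -0.34 (SE 0.35, 95% interval -1.16 to 0.47, limma adjusted p = 1.00). The exact permutation test gave p = 0.2 (two-sided).

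Adam17, a metalloprotease that cuts Notch and other surface proteins, followed the replicate number more than the genotype. It read 7.36, 0.884 and 2.09 on the wild-type arrays and 10.03, 2.40 and 2.17 on the knockout arrays. Both replicate 1 arrays were above the other 4, and the genotypes overlapped. All 3 pairs were positive, at 0.45, 1.44 and 0.054 on the log2 scale, with most of the difference in replicate 2. There the wild-type reading of 0.884 lay below the array median, at percentile 47.4. The mean was 0.65 (95% interval -1.43 to 2.72 without and -0.092 to 1.39 with the replicate block, limma adjusted p = 1.00 and 0.999). The sign turned without wild-type replicate 2 (-0.069) and without knockout replicate 1 (-0.063).

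Of 9 listed cleavage genes 8 have a probe of their own here, and 4 differences had a positive and 4 a negative sign, the list median was 0.051 and 0 passed in either limma fit (0 and 0 at an unadjusted p under 0.05). Outside Psen2 and Adam17 the smallest blocked p-values were those of Furin, the protease that first cuts the receptor during its maturation (log2 difference 0.12), and Ncstn, the nicastrin subunit of gamma-secretase (0.22). The range over the list ran from Psen2 at -0.34 to Adam17 at 0.65.

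Dtx1 is a Deltex ubiquitin ligase gene and itself a Notch target in several cell types. It was the only gene of the 8 besides Nrarp whose groups did not overlap, as for 3.78% of all probes. It read 1.14, 0.339 and 0.508 on the wild-type arrays and 1.75, 1.53 and 1.17 on the knockout arrays. All knockout values lay above all wild-type values, but narrowly, since knockout replicate 3 at 1.17 stood beside wild-type replicate 1 at 1.14. The means were 0.663 ± 0.424 and 1.48 ± 0.294 (SD, n = 3 each). The probe was dim: it ranked at percentiles 52.4, 8.97 and 25.04 of its array in wild type and at 57.4, 59.3 and 53.7 in the knockout.

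The log2 difference of Dtx1 was 1.33 (SE 0.56, 95% interval 0.022 to 2.64), a ratio of 2.51, with 0.62, 2.18 and 1.20 in the 3 pairs. The unadjusted limma p was 0.0471 and the adjusted p 1.00, and with the block they were 0.0210 and 0.999, so Dtx1 did not pass over all probes. The exact permutation test gave p = 0.1 (two-sided), the smallest possible here. Of the 7 genes other than Nrarp, 1 had an unadjusted p under the threshold of 0.05 in each fit, against 0.657% of all probes without the block and 3.75% with it. Groups without overlap were found for 1 of these 7 genes and for 3.78% of all probes. Because the probe is dim, the size depends on how low intensities are treated, and adding 1 to every intensity before taking log2 gave 0.60.

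The Deltex, ubiquitin ligase and turnover genes were evenly split in sign. Of 17 listed genes 10 have a probe of their own here, 5 differences had a positive and 5 a negative sign, the list median was -0.077 and 0 passed in either limma fit (1 in each, Dtx1, at an unadjusted p under 0.05). The other Deltex genes differed by 0.0084 (Dtx2), 0.11 (Dtx3) and -0.55 (Dtx4, another dim probe, averaging 0.855 on wild-type and 0.510 on knockout arrays), none of them with an adjusted p under the threshold. The smallest blocked p-values outside Dtx1 were those of the ubiquitin ligase genes Cbl (-0.57) and Nedd4 (-0.44), each with a limma adjusted p of 0.999.

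**Figure D2:**
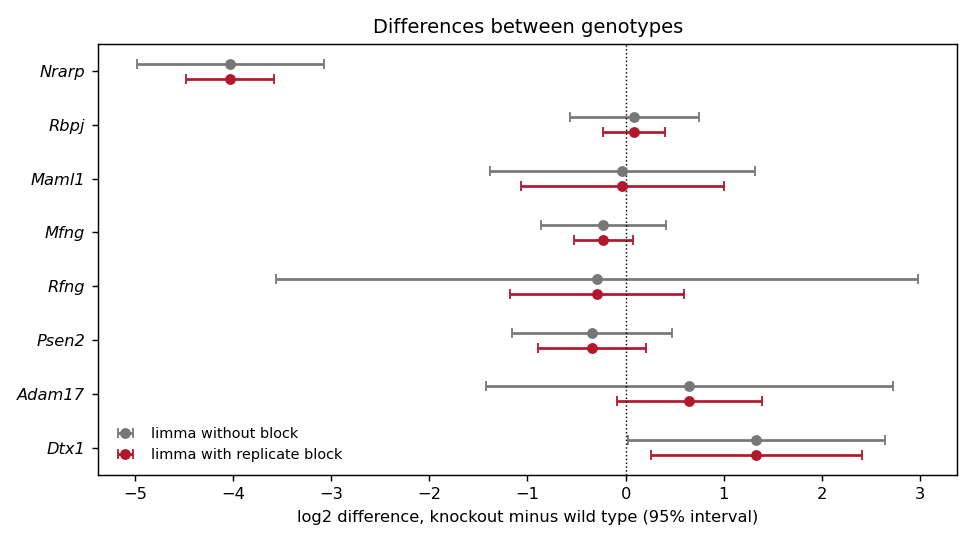
Log2 difference, knockout minus wild type, of the 8 genes (points) with 95% intervals from limma without a block (grey) and with the replicate block (red). The interval of Nrarp lies between -4.98 and -3.08 without the block, that of Dtx1 starts just above 0, and those of the other 6 genes span 0 in both fits.

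Signs within same-numbered pairs were uniform for 4 of the 7 genes other than Nrarp: Mfng and Psen2 were lower and Adam17 and Dtx1 higher in all 3 pairs. Over all probes 23.7% had 1 sign in all 3 pairs. Of the same 7 genes, Rbpj, Mfng, Psen2 and Dtx1 kept their sign whichever single array was left out, while Maml1, Rfng and Adam17 did not. The 7 differences were positive in 3 genes and negative in 4, with a median of -0.035. Their median absolute difference was 0.29, beside 0.19 over all 13840 genes. The 0.29 is the absolute difference of Rfng, which has an SE of 1.41 in limma without the block. These medians therefore do not show that the genes differed more than others.

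The replicate 1 arrays differed from the others in the same direction in both genotypes for 8 of the 8 genes, as for 82.0% of all probes. Rfng was higher on replicate 1 than on the mean of replicates 2 and 3 by 3.53 in wild type and 4.36 in the knockout on the log2 scale. Adam17 was higher by 2.44 and 2.13. A shift as large as that of Rfng, averaged over the genotypes, was seen in 0.708% of genes, and one as large as that of Adam17 in 8.87%. Rbpj, Mfng and Psen2 were steadier, with averaged shifts of 0.20, 0.26 and -0.14, while Dtx1 shifted by 0.92, Maml1 by -0.92 and Nrarp by -0.80. The median absolute shift was 0.86 over the 8 genes and 0.87 over all genes. In 5 of the 8 genes the shift was larger than the difference between genotypes, as in 84.3% of all genes.

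After quantile normalization, which gives all arrays the same range, Rfng still shifted by 3.16 and 4.06 and Adam17 by 1.97 and 1.30. The small shifts of Rbpj and Mfng turned negative in both genotypes under this scaling (-0.26 and -0.41 for Rbpj, -0.026 and -0.52 for Mfng), that of Maml1 turned positive in the knockout (0.59), and that of Psen2 grew to -0.79 and -0.75. Nrarp shifted by -0.62 in wild type and -1.91 in the knockout, and Dtx1 by 1.68 and 0.073. Marker sums of other tissues moved with replicate 1 as well. The summed intensity of the 6 gut endoderm markers was 153 (wild type) and 162 (knockout) on replicate 1, and 60.1 to 72.2 elsewhere. The 8 neural tube markers summed to 33.6 and 28.8 on the replicate 1 arrays and to 15.1 to 19.5 on the others, and 4 of them lay below the median on every array. Surface ectoderm markers were higher on replicate 1 too (152 and 149 against 114 to 137). Lower on both replicate 1 arrays were the sums for notochord (25.9 and 24.5 against 32.7 to 42.4), endothelium (83.04 and 82.7 against 87.6 to 118) and primitive blood (5779 and 4895 against 6675 to 7738), and also that for presomitic mesoderm (1431 and 1513 against 1527 to 1745). This last sum does not speak for each of its markers. Dll3 was lower on replicate 1 (494 and 471 against 536 to 605), but Hes7 (54.2 and 64.1 against 1.19 to 2.09) and Dll1 (100 and 129 against 26.7 to 30.8) were higher. Somite sums overlapped between replicate 1 (448 and 545) and the other arrays (532 to 597). The part of the range of the arrays and of these tissues in the shifts of Rfng and Adam17 was not tested.

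**Figure D3:**
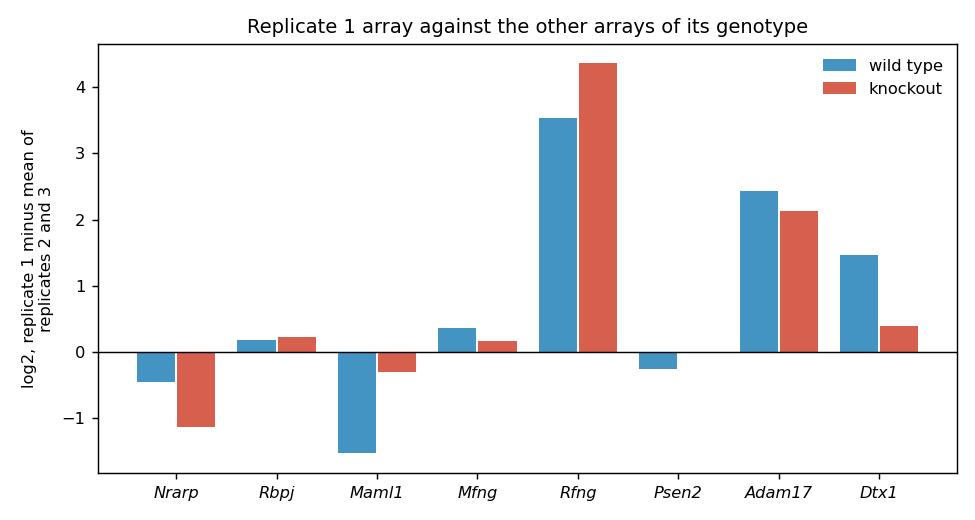
Bars give, for each of the 8 genes, the log2 intensity on the replicate 1 array minus the mean log2 intensity of replicates 2 and 3, separately for wild type and knockout. Rfng (3.53 and 4.36) and Adam17 (2.44 and 2.13) stand out, and both bars of each gene point the same way.

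Around these 8 genes, the ligands and receptors and the targets of Notch were read on the same arrays. Of 11 listed ligands and receptors 10 have a probe of their own here, 7 differences had a positive and 3 a negative sign, the list median was 0.14 and 0 passed in either limma fit (0 and 0 at an unadjusted p under 0.05). Their smallest blocked p-values were those of Dlk1, an atypical ligand (log2 difference 0.33), and Dll1, the main activating ligand of this tissue (0.17). Notch1 (0.214 to 0.777) and Notch2 (0.194 to 0.594) read below the array median on every array, while Notch3 was bright (89.0 to 132). For Notch1 and Notch2 the lack of a call thus says little. Of 15 listed Notch targets, all measured, 11 differences had a positive and 4 a negative sign, and the list median was 0.16. At an unadjusted limma p under 0.05 there were 3 without the block (Nrarp, Hes5 and Dtx1) and 6 with it, beside 0.657% and 3.75% of all probes. With the block Hey1, Mesp2 and Ccnd1 joined them at log2 differences of 0.40, 0.56 and 0.59. Groups did not overlap for 3 of the 15, Nrarp, Hes5 and Dtx1, beside 3.78% of all probes. Nrarp and Dtx1 are in this list by choice, and Hey1, Mesp2 and Ccnd1 had a limma adjusted p of 0.999 with the block. With the replicate block 1 of the targets rose, Hes5, and 1 fell, Nrarp. Hes5, a repressor gene induced by Notch, read 9.57 on average in wild type and 40.9 in the knockout, a log2 difference of 2.09 (limma adjusted p = 0.00578 with the block). Hes5 did not pass with the block but no intensity trend, nor with array weights, and stood at a limma adjusted p of 0.0499 without replicate 1. In all 60 genes of the 6 lists, counted once, 0 passed without the block and 2 passed with it, beside 0% and 0.00606% of all probes.

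**Figure D4:**
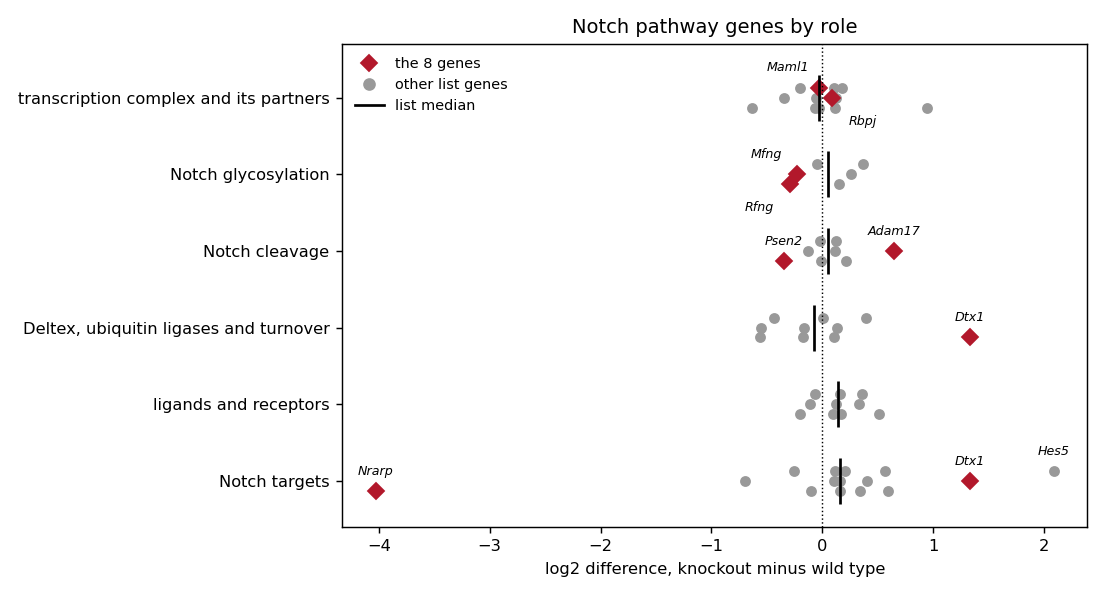
Log2 difference, knockout minus wild type, of every measured gene in 6 lists of Notch pathway genes ordered by role; red diamonds are the 8 genes described here, grey circles the others, and black bars list medians. Most genes lie near 0 and list medians run from -0.077 to 0.16, with Nrarp far to the left and Dtx1 and Hes5 to the right; Dtx1 stands in both lists that hold it.

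The genes whose pattern over the 6 arrays was most like that of Nrarp, by Pearson correlation of log2 intensity among 8733 genes with a mean intensity of at least 1, were Olfr59 (r = 0.965), Slc25a35 (0.952) and Klk1b21 (0.949). Their log2 differences were -0.83, -0.50 and -1.07, and they did not pass (limma adjusted p = 0.999 with the block). Their groups did not overlap, as for 3.78% of all probes. Picking genes for likeness to Nrarp, whose groups are separate, favours this, so it is no result about them. Olfr59, an odorant receptor gene, read 2.55, 3.54 and 3.39 on the wild-type arrays and 1.56, 1.96 and 1.78 on the knockout arrays. Most like Dtx1 were Kyat3 (r = 0.986), Gadd45g (0.981) and Necap2 (0.980), with log2 differences of 0.41, 0.59 and 0.27, and these did not pass either (limma adjusted p = 0.999 with the block). Gadd45g, a stress-response gene, read 48.5, 27.9 and 33.9 on the wild-type arrays and 65.0, 52.8 and 45.4 on the knockout arrays, and its groups overlapped. With 6 arrays that share genotype and replicate structure, the highest correlations among so many genes are a description only.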

How the data were processed

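Per the labels, cRNA from presomitic mesoderm was digoxigenin-labelled and read on one-colour arrays of Applied Biosystems. The descriptions call the array human, while the organism and the probe annotation are mouse. The authors deposited scaled linear intensities, with 0 values at or below 0; per the sources used here, software, background correction and flags are not known.

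Deposited intensities were taken as log2 without further normalization. All 33012 probes were fitted in R 4.3.3 by limma 3.58.1, with genotype as the only term and an intensity trend in eBayes. Tests are two-sided, p-values were adjusted by Benjamini-Hochberg across the whole array, and the threshold is 0.05. In the platform annotation 14411 probes have 1 gene, 247 several and 18354 are unnamed here; the brightest probe stood for a gene. Single genes were also given exact permutation tests. Same-numbered arrays deviated together from their group means (r = 0.757, 0.442 and 0.374), and the numbers were taken as pairing them, which the labels do not say. Replicates 2 and 3 correlated about as well across numbers (0.419 and 0.397). The correlations thus set replicate 1 apart but do not tell replicate 2 from replicate 3. Between those, the pairs and the replicate block rest on the numbers alone.

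Alternatives were the replicate block, other scalings, an offset, a filter on dim probes, the variance prior, array weights and left-out arrays. Named genes are the 8, list genes that pass or else the 2 with the smallest blocked p, and the 3 most like Nrarp and Dtx1; Dtx2, Dtx3 and Dtx4 were named after their values were seen. Genes and lists were chosen with earlier results of these data known. Figures were drawn with matplotlib 3.10.9.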

Additional observations from a re-analysis of the deposited data

How the results depend on the processing

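Under 19 alternatives, Rbpj, Mfng, Psen2 and Dtx1 kept their direction and did not pass. Nrarp kept its direction in all of them and passed in 6: with the replicate block (-4.03), with array weights (-4.10), without replicate 1 in both genotypes (-3.80) and in 3 alternatives chosen after seeing the data, a block of replicate 1 against the others (-4.03) and the replicate block after quantile normalization (-4.15) or 75th percentile centring (-3.97). It did not pass in the 13 others, which include the replicate block without the intensity trend. They also include the exact permutation test, run on single genes, whose smallest p of 0.1 could not pass for any gene. In the 6 passing settings the number of probes called was 2, 1, 2, 2, 2 and 3, and the number of Notch list genes called was 2, 1, 2, 2, 2 and 2. The third probe was that of Rhox5. The fit of all 6 arrays with neither block nor array weights called 0 probes. The fits with array weights and without replicate 1 had no block either. The replicate block changed no other call among the 8 genes. Maml1 turned to 0.018 with 75th percentile centring, with or without the block. Leaving out single arrays gave -0.55 to 0.33 for Maml1, -1.75 to 0.89 for Rfng and -0.069 to 1.46 for Adam17, each with turned signs, and the cause was not tested; for Nrarp it gave -4.43 to -3.65, for Dtx1 0.94 to 1.82, and 0 called probes. Maml1 has no value under the filter on dim probes, and a mean over several probes was not run because each gene has 1. The probes of Maml1, Rfng, Dtx1 and Adam17 lie below the array median on 6, 4, 2 and 1 of 6 arrays, so their values are those of dim probes there.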
